A study of Mus musculus with 12 samples.

Results

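Alveolar macrophages taken on day 3 after liver resection were set against those taken on day 1. The comparison takes the arrays whose titles name these 2 times, 3 per time, which makes 6 of the 12 arrays of the series, and every probe set that is not an array control, 22206 of 28846 in all. The donors were male C57 Black mice that had lost 70% of the liver, and the cells were pulled from the lung with magnetic beads carrying an antibody to Siglec-F. The day 3 group and the day 1 group therefore differ in the time since surgery and share strain, sex, surgery and sorting. Mice whose liver was intact (3 arrays) and mice at 7 days (3 arrays) entered the fit for the estimate of spread and are given here only as levels. The labels name the arrays of a group as biological replicates and give no age, no sham operation and no purity of the sort.

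Alveolar macrophages live in the air spaces, where they clear surfactant lipid, debris and microbes, and where GM-CSF and the nuclear receptor PPARγ keep up their identity. Removal of a large part of the liver starts a wave of cytokines and growth factors in the blood within hours, hepatocytes divide over the following days, and the lung is among the organs exposed to this change. Siglec-F is a surface lectin of alveolar macrophages in the mouse, and eosinophils carry it as well, so a sort on it can hold both.

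The arrays were those of alveolar macrophages by their defining markers. Siglecf averaged 8.54 ± 0.15 (log2 RMA signal, SD, n = 3) at day 3 and 8.33 ± 0.39 at day 1, and the mannose receptor Mrc1 10.36 ± 0.41 at day 3 and 10.26 ± 0.20 at day 1. RNA of other lung cells was present at both times: the surfactant gene Sftpc stood at 9.97, 9.23 and 9.36 on the day 3 arrays, against 9.54, 6.28 and 10.31 on the day 1 arrays, a difference of 0.81 over all 6 arrays and of -0.63 without day 3 replicate 1 and day 1 replicate 2. Because each sample is a pool of cells, fewer cells of a type and less RNA per cell cannot be told apart.

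Several arrays stood apart. Exon controls lie above intron controls where signal stands out from background, and the area under the receiver operating curve between the 2 kinds was 0.832, 0.869 and 0.869 on the day 3 arrays, against 0.872, 0.809 and 0.871 on the day 1 arrays, so that day 3 replicate 1 and day 1 replicate 2 separated least. Day 3 replicate 1 also carried the labelling control dap at 6.88, where the other 5 arrays had 2.25 to 2.89. The hybridisation control bioB was 7.44 to 7.83 at day 3 and 8.62 to 10.29 at day 1, a difference that runs with the groups, and its part in the results was not tested. The upper 95% limit of the intron controls lay between 5.01 and 5.69 over the 12 arrays, and levels under it are close to background. For the genes and lists described at most length, the value without the 2 weakly separating arrays is given too; that setting also leaves out day 7 replicate 2, which has no part in the differences.

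No single gene passed the test between day 3 and day 1. In limma's moderated test over all 12 arrays, 0 of 22206 probe sets (percent called: 0) had an adjusted p under 0.05, and the smallest adjusted p was 0.242. At an unadjusted p under 0.05 there were 2132 probe sets, 9.60% of those tested, of which 1403 were higher and 729 lower at day 3. The share on the higher side was 65.8%, and it was 57.3% after centring each array on its median and 53.4% after a second quantile normalization. Counted once per gene, 1895 of 19505 genes (9.72%) reached that unadjusted p, 1260 (6.46%) on the higher side and 635 (3.26%) on the lower side, and the median difference over all genes was 0.01. Of all genes 51.8% were higher at day 3. Brighter probe sets lay higher: of the 8272 with a mean above 4, 67.8% were higher, with a median of 0.17. Of those reaching the unadjusted p, 84.5% were on the higher side. The upper quartile of signal was 4.61 on day 1 replicate 2, against 5.11 to 5.26 on the other day 3 and day 1 arrays. Without day 1 replicate 2, 56.6% of all probe sets reaching the unadjusted p were on the higher side. The shares of the brighter probe sets were not computed without that array, and its part in them was not tested. List medians and counts below are to be read beside these shares. In 13.3% of the genes the 3 day 3 arrays and the 3 day 1 arrays did not overlap, 7.21% with day 3 above and 6.06% with day 3 below. An exact permutation test of 3 against 3 arrays cannot give a p under 0.10, so each adjusted p below is limma's, adjusted by Benjamini-Hochberg over all 22206 probe sets.

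Genes are named here by a rule: on each side the 15 genes of smallest unadjusted p among those whose day 3 and day 1 arrays do not overlap. On the higher side, Cd63, a tetraspanin of late endosomes and lysosomes, read 9.45, 9.60 and 9.23 on the day 3 arrays, against 7.95, 7.35 and 8.11 on the day 1 arrays. Every day 3 array lay more than 1 log2 unit above every day 1 array, with a difference of 1.62 ± 0.26 (log2, SE, n = 3 per group; adjusted p = 0.242). Fgl2, a fibrinogen-like protein made by myeloid and regulatory T cells, read 7.99, 7.89 and 8.30 at day 3, against 6.66, 5.71 and 6.70 at day 1, a difference of 1.70 ± 0.27. Gpr65, a receptor that senses protons, read 6.74, 6.72 and 6.73 at day 3, against 4.57, 4.27 and 5.82 at day 1. The 3 day 3 arrays were almost level for Gpr65 while the day 1 arrays spread over more than a log2 unit, and the difference was 1.85 ± 0.31 (adjusted p = 0.242). It was 1.53 ± 0.32 without the weakly separating arrays (adjusted p = 0.12) and between 1.54 and 2.31 with any single array left out, the highest being without day 1 replicate 3, with an adjusted p of 0.0010.

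Apobec1, the enzyme that edits cytidine in the mRNA of apolipoprotein B, had the smallest unadjusted p of the named genes. It read 7.50, 8.02 and 7.78 at day 3, against 6.36, 6.14 and 6.67 at day 1, a difference of 1.38 ± 0.21, and the groups lay apart. Clec12a, an inhibitory lectin of myeloid cells that recognises uric acid crystals, read 6.31, 6.86 and 6.62 at day 3, against 5.13, 3.92 and 5.28 at day 1. Day 1 replicate 2 was the lowest array for Clec12a by over 1 log2 unit, and the difference of 1.82 ± 0.35 became 1.53 ± 0.28 without the weakly separating arrays. Arhgap15, a GTPase-activating protein for Rac, had the largest difference of the 15 higher genes, 2.41 ± 0.47. It read 6.40, 6.12 and 6.62 at day 3, against 4.48, 2.95 and 4.48 at day 1, so that day 1 replicate 2 again stood lowest, and the difference was 1.89 ± 0.28 without the weakly separating arrays (adjusted p = 0.052).

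The other higher genes that the naming rule took were Il5ra and Abca1, described below, Myo5a, a motor that carries vesicles along actin (1.26 ± 0.22), Arrdc3, an arrestin-like adaptor (1.28 ± 0.23), the RNA-binding protein gene Rbm5 (1.13 ± 0.22), the cohesin subunit gene Stag1 (1.15 ± 0.22), the deubiquitinase gene Usp37 (1.08 ± 0.19), F8a (1.09 ± 0.19) and the zinc finger gene Zfp354c (0.81 ± 0.15). Il5ra, Usp37, F8a and Zfp354c had both group means under 5.01, the lowest upper limit of the intron controls. The rule chose all 15 for lack of overlap, so their separation is a description. Day 3 had the highest of the 4 group means for each of the 15, and day 1 the lowest for 14. The choice of genes with day 3 above day 1 favours these ranks, which were not counted over all genes. Il5ra, whose intact mean of 2.53 lay close to its day 1 mean of 2.43 and whose day 7 mean was 3.77, and Cd63, whose intact mean of 7.53 was under its day 1 mean of 7.80, lay more than 1 log2 unit above intact at day 3. Apobec1, with an intact mean of 7.07, and Abca1, with 7.75, lay within 1 log2 unit of it. Without the weakly separating arrays the 15 differences ran from 0.73 to 1.89 and none passed, with a smallest adjusted p of 0.052.

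**Figure D1:**
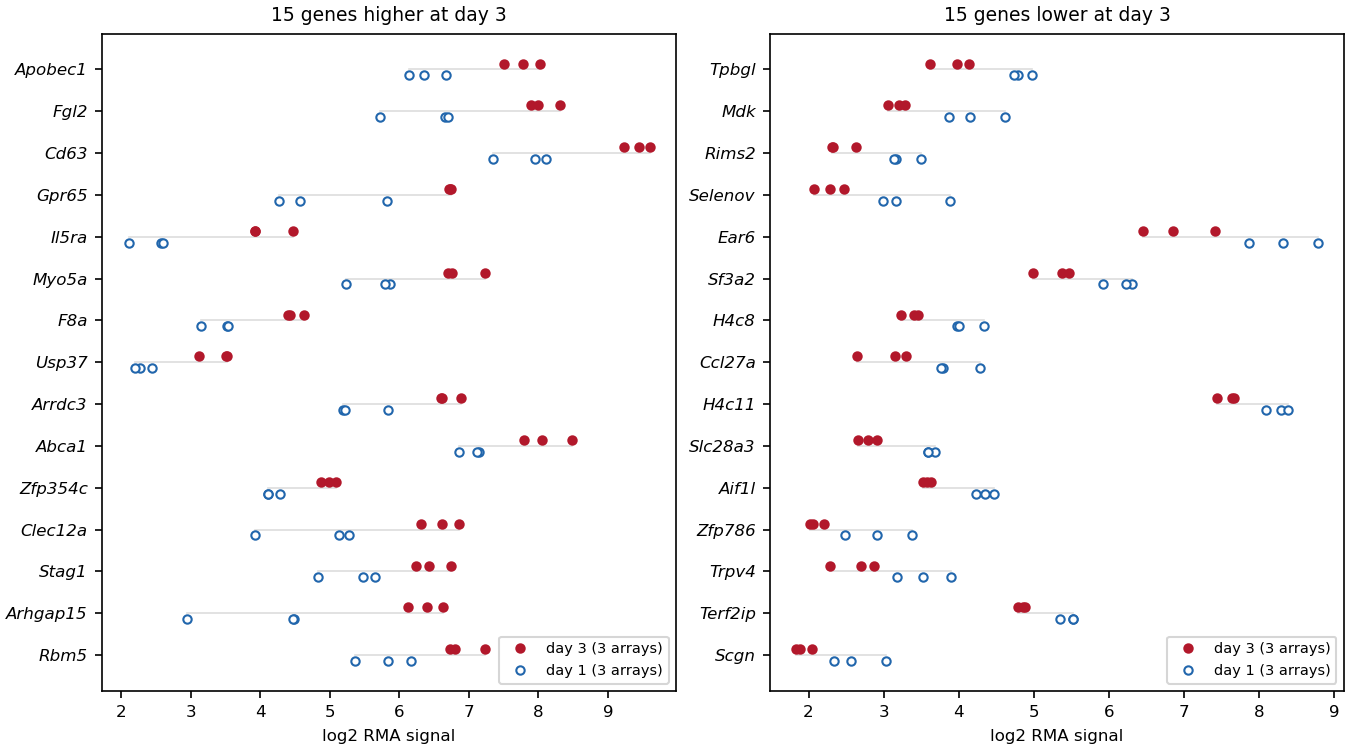
Log2 RMA signal of the 15 genes higher and the 15 genes lower at day 3 that the naming rule took, 1 row per gene in order of unadjusted p. Filled points are the 3 day 3 arrays and open points the 3 day 1 arrays. The rule chose genes whose points do not overlap, and many of the lower genes and some of the higher genes lie under 5, near background.

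The lower genes were weaker and mostly dim. The 15 that the rule took differed by -1.41 to -0.62, with adjusted p between 0.271 and 0.363. Ear6, a ribonuclease of the eosinophil-associated family, read 6.45, 6.86 and 7.42 at day 3, against 8.32, 8.78 and 7.86 at day 1, a difference of -1.41 ± 0.31. All 3 day 3 arrays were under the lowest day 1 array, and without the weakly separating arrays the difference was -0.95 ± 0.29. Mdk, the heparin-binding growth factor midkine, read 3.06, 3.29 and 3.20 at day 3, against 3.87, 4.62 and 4.15 at day 1, and so lay in the range of the intron controls at both times. Sf3a2, a splicing factor subunit, averaged 5.28 ± 0.25 at day 3 and 6.16 ± 0.20 at day 1, and Terf2ip, a telomere protein that binds TRF2, 4.84 ± 0.05 at day 3 and 5.47 ± 0.10 at day 1. H4c11 and H4c8 are histone genes, described below with their family. The others were Tpbgl, Rims2, Selenov, Ccl27a, Slc28a3, Aif1l, Zfp786, Trpv4 and Scgn, and each of these 9 had both group means under 5.01, the lowest upper limit of the intron controls. Day 3 had the lowest of the 4 group means for 13 of the 15 lower genes and day 1 the highest for 14. Here too the choice of genes favours these ranks.

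The macrophage elastase gene Mmp12 had the largest difference of all genes and is named outside the rule, after its values were seen. It read 8.95, 10.47 and 9.79 at day 3, against 6.53, 4.24 and 7.82 at day 1. The day 3 arrays were all above the day 1 arrays, which spread over more than 3 log2 units, and the difference was 3.54 ± 0.77 (adjusted p = 0.289). Without the weakly separating arrays it was 2.96 ± 0.51 (adjusted p = 0.072). Its mean was 7.46 ± 0.91 in mice with an intact liver and 8.40 ± 0.84 at day 7.

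Leaving out the weakly separating arrays left 2 arrays per time and gave 6 calls, 0.0270% of the probe sets, 3 of them higher and 3 lower. Apart from Apoe, a member of the lipid list below, these genes are also named outside the rule, after their values were seen. Apoe, the apolipoprotein that macrophages secrete to carry lipid, read 8.61, 12.22 and 11.61 at day 3, against 9.39, 9.01 and 9.41 at day 1. Day 3 replicate 1 was lower than every day 1 array, whereas the other 2 day 3 arrays were more than 2 log2 units above them. The difference was 1.54 ± 0.66 over all arrays (adjusted p = 0.494) and 2.52 ± 0.24 without the weakly separating arrays (adjusted p = 0.0039).

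Mfge8, a bridge protein by which phagocytes take up dying cells, read 5.15, 8.45 and 7.48 at day 3, against 4.48, 3.76 and 5.16 at day 1, with a difference of 2.56 ± 0.64, or 3.14 ± 0.31 without the weakly separating arrays (adjusted p = 0.0039). Sdc1, the heparan sulfate proteoglycan syndecan-1, read 3.19, 6.63 and 5.39 at day 3, against 3.50, 3.33 and 3.42 at day 1, with a difference of 1.65 ± 0.60, or 2.55 ± 0.31 without those arrays (adjusted p = 0.021). As with Apoe, day 3 replicate 1 lay within or under the day 1 values for Mfge8 and Sdc1. The same 3 genes passed when only day 3 replicate 1 was left out, at an adjusted p of 0.0042 for Apoe and 0.025 for the other 2. With day 7 replicates 2 and 3, which also carried dap, left out as well, none passed, and the smallest adjusted p was 0.070.

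The 3 lower calls had another pattern. Prok2, a chemokine-like peptide abundant in neutrophils, read 6.21, 3.97 and 3.90 at day 3, against 6.12, 4.38 and 6.19 at day 1. Serpina3n, a secreted protease inhibitor of the acute phase, read 5.81, 3.41 and 3.29 at day 3, against 6.13, 3.35 and 6.17 at day 1. Scn3b, a sodium channel subunit, read 6.71, 4.81 and 4.93 at day 3, against 6.51, 3.66 and 6.44 at day 1. In each of the 3, day 3 replicate 1 had about the level of day 1 replicates 1 and 3, and day 1 replicate 2 lay nearer to the other day 3 arrays than to the other day 1 arrays. Over all arrays the differences were -0.87 ± 0.61, -1.05 ± 0.76 and -0.05 ± 0.69, and without the weakly separating arrays they were -2.22 ± 0.26 (adjusted p = 0.014), -2.80 ± 0.36 (adjusted p = 0.023) and -1.61 ± 0.21 (adjusted p = 0.026).

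**Figure D2:**
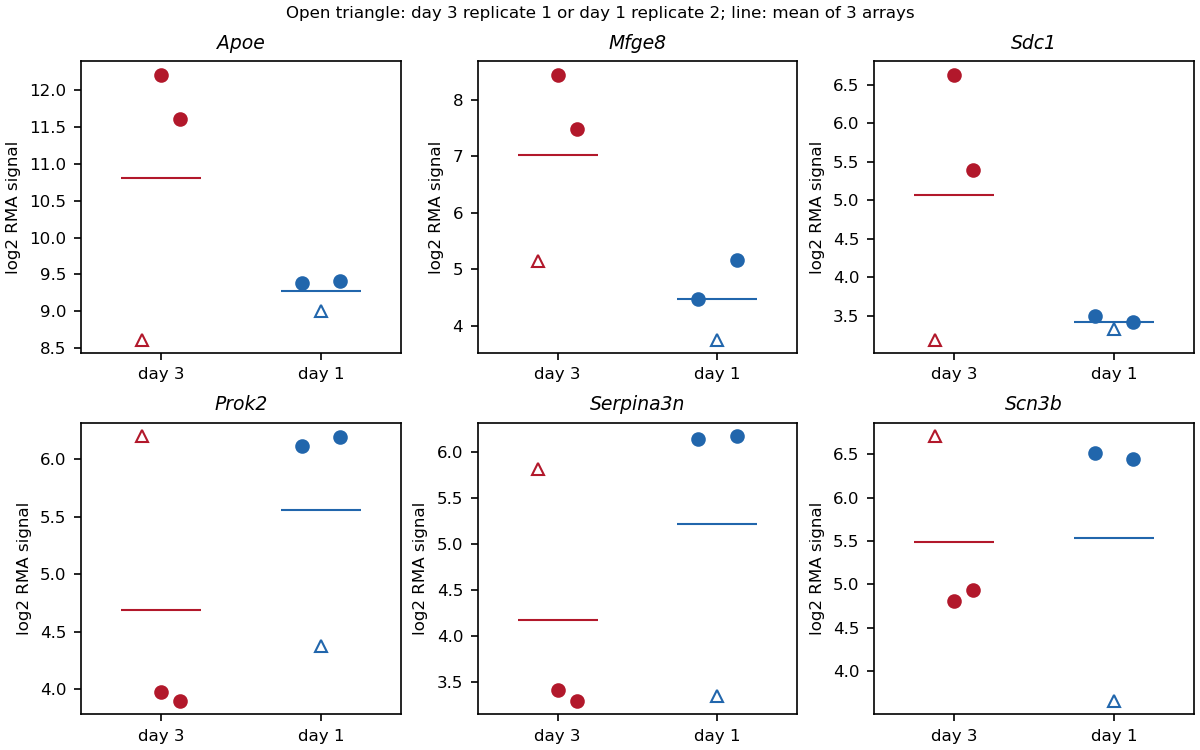
Log2 RMA signal on each day 3 and day 1 array of the 6 genes called when the weakly separating arrays, drawn as open triangles, were left out. Apoe, Mfge8 and Sdc1 were high on 2 of 3 day 3 arrays, and for Prok2, Serpina3n and Scn3b each triangle lies away from the other 2 arrays of its day.

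The list for lipid uptake, storage and efflux held 16 measured genes, of which 12 were higher at day 3, 4 of them at an unadjusted p under 0.05, and none lower at that p; its median difference was 0.18, -0.01 without the weakly separating arrays and -0.09 without day 1 replicate 2 alone. Abca1, the pump that loads cholesterol onto lipid-poor apolipoprotein, read 7.79, 8.48 and 8.06 at day 3, against 6.86, 7.15 and 7.12 at day 1, with no overlap and a difference of 1.07 ± 0.19. It averaged 7.75 ± 0.20 with an intact liver and 8.04 ± 0.05 at day 7, so that day 1 was the low point. Scd1, which desaturates stearoyl-CoA, read 7.39, 6.34 and 6.29 at day 3, against 4.71, 4.93 and 6.11 at day 1, a difference of 1.42 ± 0.38, or 0.90 ± 0.39 without the weakly separating arrays. Fabp5, a fatty acid carrier, differed by 1.12 ± 0.49, and by 0.65 without day 1 replicate 2 and 0.72 without day 3 replicate 2. Fabp4, its abundant relative in alveolar macrophages, averaged 8.07 ± 0.45 at day 3 and 8.28 ± 1.07 at day 1, and differed by -1.08 without the weakly separating arrays. In cholesterol synthesis 8 of 15 genes were higher and 0 of 15 reached the unadjusted p, and Hmgcs1, the first committed enzyme, averaged 8.26 ± 0.35 at day 3 and 8.44 ± 0.21 at day 1.

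The promoter of Abca1 is printed because it is 1 of the 2 promoters with an E-box, the palindrome CACGTG that many helix-loop-helix factors read, among the 14 of the 15 higher genes that the RefSeq promoter table (GRCm38.p6) held; Arhgap15 has the other. The window is the 250 bases before the start site, at chr4:53159896-53160145 on the minus strand, written 5′ to 3′ along the gene with the E-box in capitals.
Abca1: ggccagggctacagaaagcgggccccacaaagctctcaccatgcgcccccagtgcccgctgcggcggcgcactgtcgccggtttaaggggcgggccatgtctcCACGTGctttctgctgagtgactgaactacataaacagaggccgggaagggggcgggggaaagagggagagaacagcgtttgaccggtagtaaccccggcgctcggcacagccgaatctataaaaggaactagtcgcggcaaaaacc
The palindrome starts 147 bases before the start site. It was found in 6.86% of the 27025 genes of the table with a window of this length, on both strands, and in 5 of the 17 lysosome genes with a window (29.4%): Lamp1, Ctsa, Ctsl, Gaa and Mcoln1. Cd63 was not among them. A match of letters is not a measured site.

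In the lysosome list 17 of 21 genes were higher at day 3, 3 of them at an unadjusted p under 0.05 and none lower, with a median of 0.19, and 0.23 without the weakly separating arrays. Without day 1 replicate 2 alone it was 0.06, and without day 3 replicate 2 alone it was -0.03. Besides Cd63, these were Ctsl, the cysteine protease cathepsin L, which read 7.46, 8.74 and 8.57 at day 3, against 7.47, 6.44 and 7.25 at day 1 (1.20 ± 0.35), and Npc1, the lysosomal cholesterol transporter (0.88 ± 0.39). Day 3 replicate 1 lay at the day 1 level for Ctsl, as it did for Apoe. Npc1 differed by 0.30 ± 0.19 without the weakly separating arrays, since its low value was that of day 1 replicate 2, 5.53 against 7.06 and 7.28 on the other day 1 arrays.

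In the complement list 9 of 12 genes were higher, 3 higher and 1 lower at an unadjusted p under 0.05, and the median was 0.42, or 0.43 without the weakly separating arrays. It was 0.16 without day 1 replicate 2 alone and 0.68 without day 1 replicate 3 alone. The anaphylatoxin receptors stood on opposite sides. C3ar1, the receptor for C3a, read 6.27, 7.85 and 7.27 at day 3, against 5.60, 3.97 and 5.78 at day 1, with a difference of 2.01 ± 0.48 (adjusted p = 0.322). C5ar1, the receptor for C5a, read 6.92, 7.35 and 7.73 at day 3, against 8.11, 8.22 and 8.36 at day 1, with a difference of -0.90 ± 0.23 (adjusted p = 0.365). Neither pair of groups overlapped. Cd55, which speeds the decay of C3 convertases, differed by 1.56 ± 0.42 at levels of 4.47 ± 0.24 at day 3 and 2.91 ± 0.57 at day 1, and C4b, a component of the classical pathway, by 0.86 ± 0.30. The 2 receptors kept their sides without the weakly separating arrays, at 1.87 ± 0.29 for C3ar1 (adjusted p = 0.052) and -0.70 ± 0.25 for C5ar1.

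Among growth factors and genes of liver regeneration, 19 of 26 were higher, 8 higher and 1 lower at an unadjusted p under 0.05, with a median of 0.11, or 0.22 without the weakly separating arrays. Of the 26, 17 had both group means under 5.01. Hgf, the hepatocyte growth factor that binds the receptor Met, read 5.24, 5.85 and 5.09 at day 3, against 4.08, 2.99 and 4.63 at day 1, with a difference of 1.49 ± 0.34 (adjusted p = 0.319). Vegfa, the growth factor of vessels, read 6.33, 6.66 and 5.91 at day 3, against 5.0, 3.40 and 5.06 at day 1, with a difference of 1.82 ± 0.43 (adjusted p = 0.320). Both were separate between the times, and day 1 replicate 2 was the lowest array for each, so that the differences were 1.11 ± 0.27 and 1.26 ± 0.30 without the weakly separating arrays. Igf1, a growth factor that tissue macrophages secrete, averaged 8.62 ± 0.72 at day 3 and 7.36 ± 0.39 at day 1 (1.26 ± 0.41), and Tgfa, a ligand of the EGF receptor, 3.24 ± 0.18 at day 3 and 2.68 ± 0.12 at day 1. For Hgf, the intact mean of 5.33 ± 0.02 was close to that of day 3, and the same held for Vegfa with an intact mean of 5.88 ± 0.42. Vegfa is also a member of the list of type 1 alveolar genes below.

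Inflammatory cytokines were split over all 6 arrays. Of 17, 7 were higher, 1 higher and 2 lower at an unadjusted p under 0.05, and the median was -0.13, or 0.07 without day 1 replicate 3. Without the weakly separating arrays 3 of the 17 were higher, with a median of -0.26. Csf1, the macrophage colony-stimulating factor, read 8.77, 8.69 and 9.0 at day 3, against 7.17, 6.20 and 7.83 at day 1 (1.75 ± 0.44), while Tnf read 10.18, 9.58 and 10.65 at day 3, against 10.78, 10.36 and 11.14 at day 1 (-0.62 ± 0.26, and -0.34 without day 3 replicate 2), with overlap. Il27, a subunit of a cytokine that restrains T cells, was dim at 3.39 ± 0.12 at day 3 and 3.88 ± 0.17 at day 1. Il1b averaged 10.09 ± 0.14 at day 3 and 10.22 ± 0.40 at day 1, and Il6 8.25 ± 0.77 at day 3 and 7.24 ± 1.79 at day 1, a difference of 1.00 that was -0.46 without the weakly separating arrays.

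Of 15 CC chemokines 3 were higher, with a median of -0.18 and 1 lower at the unadjusted p; without the weakly separating arrays the median was -0.39, and without day 3 replicate 2 alone it was -0.0042. Of 12 CXC chemokines 6 were higher, and their median of -0.10 became -0.67 without the weakly separating arrays and -0.61 without day 1 replicate 2 alone. At the unadjusted p, 1 CXC chemokine was higher and 1 lower. The higher was Cxcl16, a membrane-bound chemokine that also takes up oxidised lipid, at 1.25 ± 0.47, or 0.57 without day 1 replicate 2. The lower was Cxcl14 at -0.75 ± 0.28, dim at both times with means of 3.21 at day 3 and 3.96 at day 1. The interferon-induced Cxcl10 averaged 7.16 ± 0.61 at day 3 and 7.61 ± 0.98 at day 1. Cxcl13, which draws B cells, averaged 7.02 ± 1.16 at day 3 and 6.64 ± 1.42 at day 1, a difference of 0.38 that was -1.01 without the weakly separating arrays. In the NF-kB list 11 of 17 genes were higher and 2 reached the unadjusted p, among them the inhibitor of apoptosis gene Birc3 at 0.48 ± 0.19, and the median of 0.13 was -0.19 without the weakly separating arrays.

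Immediate early genes, the fast-acting transcription factors and feedback genes that stimulation switches on, were higher at day 3 in 22 of 26 cases, with 7 higher and 1 lower at an unadjusted p under 0.05 and a median of 0.30. Nr4a2, an orphan nuclear receptor, read 6.87, 7.32 and 6.75 at day 3, against 5.51, 4.49 and 6.0 at day 1 (1.65 ± 0.44). Fos, a subunit of AP-1, read 9.65, 9.65 and 9.61 at day 3, against 9.20, 8.79 and 9.17 at day 1 (0.59 ± 0.16), and the antiproliferative Btg2 differed by 0.64 ± 0.20. The 3 genes were separate between the times. Fosl1, the AP-1 subunit Fra-1, stood on the other side, at 6.06, 5.94 and 6.0 at day 3 against 6.98, 6.85 and 6.24 at day 1 (-0.69 ± 0.20). Day 1 had the lowest of the 4 group means for 21 of the 26 genes, and Nr4a2 stood at 7.72 ± 0.52 with an intact liver. The share of all genes with day 1 lowest was not counted. Without the weakly separating arrays 16 of the 26 were higher, with a median of 0.22, and without day 1 replicate 2 alone the median was 0.10. Nr4a1 and Egr1 averaged 8.66 ± 0.19 and 9.94 ± 0.73 at day 3, and 8.70 ± 0.21 and 9.48 ± 0.14 at day 1. Sorting itself can switch on genes of this list, and its part in their differences was not tested.

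Histone genes that are transcribed in S phase and lack a poly(A) tail lay mostly lower at day 3. Of 31 measured, 26 were lower and 5 higher, 7 were lower and 0 higher at an unadjusted p under 0.05, and 8 had day 3 arrays all below the day 1 arrays. The median was -0.31, against 0.01 over all genes, -0.40 without the weakly separating arrays and between -0.52 and -0.21 with any single array left out. Day 3 had the lowest of the 4 group means for 26 of the 31, and the share of all genes with day 3 lowest was not counted. H4c11 read 7.68, 7.64 and 7.45 at day 3, against 8.29, 8.39 and 8.10 at day 1, a difference of -0.67 ± 0.15 (adjusted p = 0.311), and it averaged 8.55 ± 0.15 with an intact liver and 8.60 ± 0.07 at day 7. H4c12 read 5.73, 6.41 and 6.19 at day 3, against 6.73, 7.11 and 6.91 at day 1 (-0.81 ± 0.21, and -0.52 ± 0.18 without the weakly separating arrays), and H4c1 averaged 7.60 ± 0.40 at day 3 and 8.29 ± 0.22 at day 1. Of the 8 genes for histone H4, 7 were lower and 5 had an unadjusted p under 0.05; H4c9 was the exception at 0.19, and -0.13 without the weakly separating arrays. The 5 higher members were H1f2, H2bc4, H2bc8, H2bc11 and H4c9. Genes of the same histone class have very similar coding sequences, and whether probes for one bind RNA of another was not tested.

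**Figure D3:**
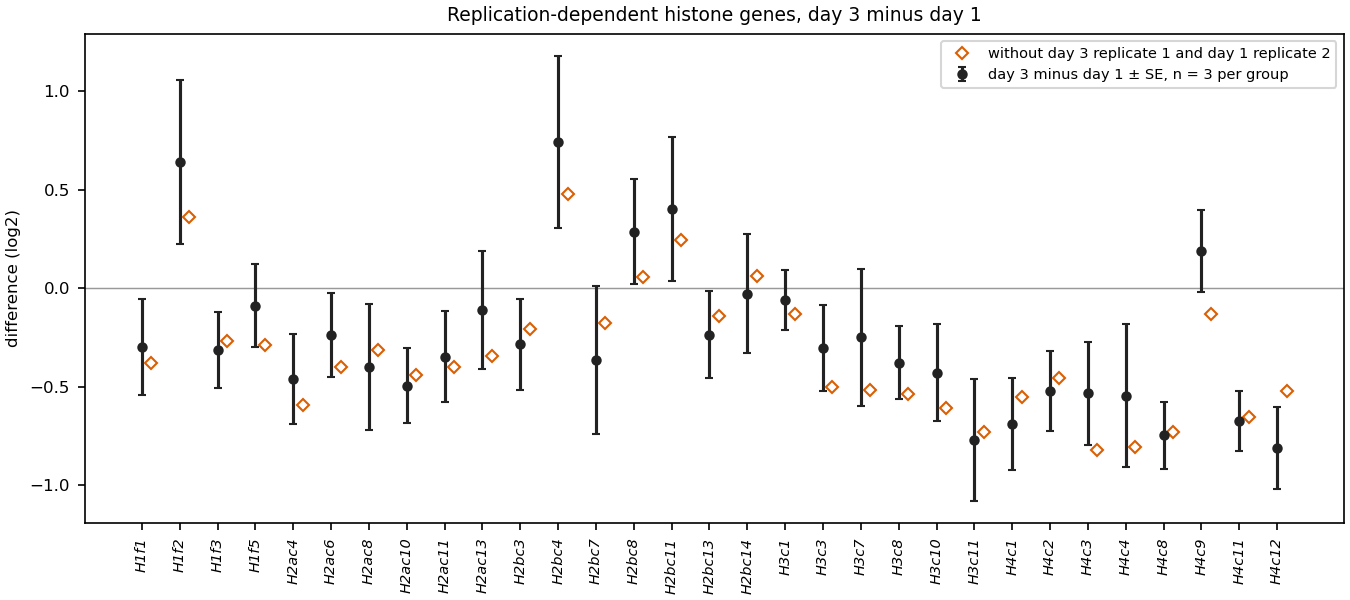
Difference between day 3 and day 1 in log2 RMA signal for the 31 replication-dependent histone genes. Filled points with bars are the difference ± SE from limma, n = 3 per group, and open diamonds the difference without the weakly separating arrays; 26 of 31 filled points lie under 0.

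The promoters of H4c11 and H4c12 are printed for the letters that the H4 genes share. GGTCCG belongs to the conserved element of histone H4 promoters and is in capitals. The windows, from RefSeq on GRCm38.p6, are chr13:21734784-21735033 on the plus strand for H4c11 and chr13:21750554-21750803 on the minus strand for H4c12.
H4c11: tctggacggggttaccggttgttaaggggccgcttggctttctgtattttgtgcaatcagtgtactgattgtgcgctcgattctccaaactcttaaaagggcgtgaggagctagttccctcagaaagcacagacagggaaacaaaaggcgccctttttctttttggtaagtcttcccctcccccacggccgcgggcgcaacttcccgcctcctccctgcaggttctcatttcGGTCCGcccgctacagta
H4c12: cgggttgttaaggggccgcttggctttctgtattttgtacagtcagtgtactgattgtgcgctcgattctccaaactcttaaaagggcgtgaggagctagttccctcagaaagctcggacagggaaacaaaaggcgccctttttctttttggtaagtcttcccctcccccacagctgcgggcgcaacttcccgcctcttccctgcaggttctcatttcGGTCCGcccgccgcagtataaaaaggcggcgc
Set against each other over 236 bases, the 2 windows were identical at 226, or 95.8%. The letters start 18 bases before the start site of H4c11 and 32 before that of H4c12. They were found, on either strand, in 5 of the 8 H4 windows, in 6 of the 28 histone windows of the table and in 7.69% of all 27025 genes. H4c8, H4c1 and H4c2 had no match, and they were on the lower side too.

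Over all 6 arrays, other genes of the cell cycle were more evenly split. Of 39, 16 were higher, 1 higher and 1 lower at an unadjusted p under 0.05, and the median was -0.11. Without the weakly separating arrays 10 of the 39 were higher, with a median of -0.16. The helicase subunit gene Mcm6 was the lower member, at 4.72 ± 0.54 at day 3 and 5.49 ± 0.42 at day 1, and the proliferation marker Mki67 averaged 6.41 ± 0.76 at day 3 and 6.68 ± 0.22 at day 1. Topoisomerase Top2a averaged 4.19 ± 0.08 at day 3 and 3.90 ± 0.61 at day 1. Mki67 differed by -0.26 over all arrays and by -0.82 without the weakly separating arrays, and Top2a by 0.29 and -0.09.

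Most genes of the interferon response and of antigen presentation were higher at day 3, and the list medians were nearer to 0 without day 1 replicate 2. Of 31 interferon genes 25 were higher, 5 of them at an unadjusted p under 0.05 and none lower, and the median of 0.38 was 0.18 without day 1 replicate 2 and 0.09 without the weakly separating arrays. Irgm1, a GTPase that acts on phagosomes, read 7.61, 6.21 and 6.86 at day 3, against 6.01, 3.11 and 6.35 at day 1, a difference of 1.73 ± 0.65 that was 0.35 ± 0.24 without those arrays. Ifit3b differed by 0.78 ± 0.29. Of 13 genes of MHC class II presentation 10 were higher and 2 reached the unadjusted p, with a median of 0.41 that was 0.08 without the weakly separating arrays: Cd86, a costimulator of T cells, at 1.19 ± 0.44 (0.47 ± 0.33 without those arrays), and Ciita, the master activator of class II genes, at 0.63 ± 0.22 and at levels of 3.27 ± 0.25 at day 3 and 2.64 ± 0.24 at day 1. H2-Ab1, a class II chain, averaged 7.85 ± 0.29 at day 3 and 7.14 ± 1.69 at day 1, a difference of 0.71 that was -0.31 without those arrays, and 9.48 ± 0.50 with an intact liver.

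The identity genes of alveolar macrophages were nearly level. Of 25, 11 were higher, 1 was lower at an unadjusted p under 0.05, and the median was -0.05, or -0.16 without the weakly separating arrays. Marco, a scavenger receptor for bacteria and particles, read 6.91, 6.63 and 7.00 at day 3, against 8.11, 6.98 and 7.62 at day 1 (-0.72 ± 0.31, and -0.46 without day 1 replicate 1). Pparg read 8.54, 8.61 and 8.82 at day 3, against 8.90, 9.27 and 8.85 at day 1 (-0.36 ± 0.18, and -0.16 ± 0.17 without the weakly separating arrays), with a narrow gap between the groups. In the list of monocytes and interstitial macrophages 10 of 17 genes were higher and the median was 0.01. Ms4a7, a membrane protein of resident tissue macrophages, read 4.24, 6.44 and 5.62 at day 3, against 4.24, 2.77 and 3.95 at day 1 (1.78 ± 0.55), again with day 3 replicate 1 at the day 1 level.

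Eosinophil genes went both ways. Ccr3, the eotaxin receptor, read 4.98, 5.28 and 6.26 at day 3, against 3.49, 2.50 and 3.21 at day 1, a difference of 2.44 ± 0.48 (adjusted p = 0.271), and 2.42 ± 0.38 without the weakly separating arrays (adjusted p = 0.052). Il5ra, the receptor for interleukin-5, read 3.92, 3.92 and 4.47 at day 3, against 2.57, 2.11 and 2.60 at day 1 (1.68 ± 0.28), low levels at both times. The granule genes were not higher with them, and Ear6 was lower. Epx, eosinophil peroxidase, averaged 3.38 ± 0.64 at day 3 and 4.23 ± 1.10 at day 1, both under 5.01 and so close to background. Prg2, major basic protein, averaged 5.98 ± 1.12 at day 3 and 6.63 ± 0.63 at day 1. Its difference of -0.66 was -0.05 without the arrays that carried dap. Of the 12 eosinophil genes 5 were higher, with a median of -0.09. Without the weakly separating arrays 7 were higher with a median of 0.15, and without day 1 replicate 2 alone the median was 0.04. The list averaged 4.27 to 5.07 per array at day 3 and 4.29 to 4.62 at day 1. Ccr3 was also high at day 7, at 6.07 ± 1.10, against 3.37 ± 0.31 with an intact liver.

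Most neutrophil genes overlapped between the times. Of 27, 12 were higher, 1 higher and 1 lower at an unadjusted p under 0.05, with a median of -0.07 that was -0.43 without the weakly separating arrays and -0.37 without day 1 replicate 2. S100a8 averaged 9.48 ± 0.35 at day 3 and 9.69 ± 0.87 at day 1, S100a9 9.37 ± 0.63 at day 3 and 9.47 ± 0.62 at day 1, Mmp9 6.74 ± 0.66 at day 3 and 6.73 ± 0.23 at day 1, and Cxcr2 7.42 ± 0.73 at day 3 and 7.10 ± 0.08 at day 1. All 4 stood above their intact means of 8.54, 8.44, 5.29 and 6.07. G0s2, an inhibitor of lipolysis abundant in neutrophils, was the lower member, at 5.32, 5.73 and 6.13 at day 3 against 6.38, 6.41 and 6.41 at day 1 (-0.67 ± 0.23). In the list of T and NK cells 11 of 19 were higher with a median of 0.06, and Il7r, the receptor for interleukin-7, read 6.27, 7.05 and 6.70 at day 3, against 5.29, 4.50 and 5.91 at day 1 (1.44 ± 0.35). The lists of B cells, dendritic cells, and mast cells and basophils had medians of 0.01, -0.04 and -0.03.

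Lung tissue genes differed between arrays of the same day. All 11 type 1 alveolar genes and all 15 type 2 alveolar genes were higher at day 3, with medians of 0.75 and 0.57, and 4 and 2 of them reached the unadjusted p. The 4 include Vegfa and the 2 include Scd1, both described above under other lists. The type 2 list averaged 6.29, 5.30 and 5.40 on the day 3 arrays, against 5.34, 4.03 and 5.82 on the day 1 arrays, so that day 3 replicate 1 was the highest and day 1 replicate 2 the lowest of the 6. Without these 2 arrays the type 2 median was -0.41 and the type 1 median 0.13. Pdpn, podoplanin, which macrophages can carry too, read 5.53, 7.10 and 6.35 at day 3, against 4.82, 4.65 and 5.24 at day 1 (1.42 ± 0.35, and 1.69 ± 0.31 without those arrays), whereas Ager, the receptor RAGE of type 1 cells, differed by 1.11 ± 0.45, and 0.41 ± 0.32 without them. Cldn18, a tight junction protein, read 7.87, 4.84 and 5.80 at day 3, against 4.79, 3.38 and 5.33 at day 1, a difference of 1.67 that was 0.26 without those arrays. The surfactant lipid enzyme Lpcat1 differed by 1.19 ± 0.29, and 0.68 ± 0.25 without those arrays.

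The endothelial list averaged 6.59, 5.16 and 5.41 at day 3, against 5.70, 4.39 and 6.09 at day 1, with a median difference of 0.23 that was -0.44 without the weakly separating arrays. Col3a1, a collagen of fibroblasts, was at background at both times, at 2.55 ± 0.25 at day 3 and 3.15 ± 0.26 at day 1, against 4.92 ± 0.51 with an intact liver. The part of lung tissue RNA in the differences of macrophage genes was not tested.

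Glucocorticoid and clock genes are given together. Of 15 glucocorticoid response genes 13 were higher, with 1 at the unadjusted p, Zbtb16, a zinc finger repressor, at 1.05 ± 0.28. Without the weakly separating arrays Zbtb16 was at 0.66 ± 0.26, 8 of the 15 were higher, and the median of 0.24 was 0.01. Fkbp5, a co-chaperone that glucocorticoids switch on, ran the other way, at 8.23, 7.43 and 8.14 at day 3, against 8.69, 9.33 and 7.94 at day 1, with overlap, and averaged 6.67 ± 0.35 with an intact liver. Of 15 clock genes 10 were higher with a median of 0.14, but 7 were higher with a median of -0.06 without the weakly separating arrays, and the median was -0.13 without day 1 replicate 2 alone. Dbp, a clock output gene, read 6.30, 5.53 and 5.56 at day 3, against 4.44, 4.43 and 4.61 at day 1 (1.30 ± 0.43), and Arntl, the activator BMAL1, 5.19, 4.55 and 4.46 at day 3, against 4.62, 2.53 and 3.90 at day 1. The difference of Arntl was 1.05 over all arrays and 0.24 without the weakly separating arrays. The labels give no time of day.

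Of 12 acute phase genes 10 were higher at day 3, 1 at the unadjusted p, with a median of 0.18. Without the weakly separating arrays 6 of the 12 were higher, and the median was 0.04 without day 1 replicate 2 alone. Saa3, a serum amyloid made by macrophages and epithelium, read 7.88, 9.75 and 9.21 at day 3, against 9.54, 7.23 and 9.89 at day 1, and Lcn2, the iron-binding lipocalin, averaged 11.26 ± 0.43 at day 3 and 11.08 ± 0.68 at day 1. Both stood above the intact means of 5.91 ± 0.41 and 9.67 ± 0.51. Slc40a1, the iron exporter ferroportin, averaged 5.83 ± 0.76 at day 3 and 5.52 ± 0.26 at day 1, against 3.99 ± 0.21 with an intact liver. Among genes of integrins and migration 16 of 20 were higher, 3 at the unadjusted p and none lower, with a median of 0.28 that was 0.07 without day 1 replicate 2. Itga4, the α4 chain of VLA-4, read 8.48, 8.18 and 8.49 at day 3, against 7.88, 6.68 and 7.49 at day 1 (1.03 ± 0.30, and 0.65 ± 0.23 without the weakly separating arrays). The lists of ribosomal proteins, the respiratory chain, oxidative stress and alternative activation had medians between -0.03 and 0.10.

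Over the 45 lists, 33 had a median above 0, and 18 medians changed sign without the weakly separating arrays. Leaving out day 1 replicate 2 alone changed the sign of 21. In 14 lists the median stayed on its side with any single array left out and without the weakly separating arrays, among them complement, immediate early genes, interferon response, growth factors, integrins and type 1 alveolar cells on the higher side, and replication-dependent histones and CC chemokines on the lower side. Beside the list medians, the median was 0.01 over all genes and 0.17 over probe sets with a mean above 4.

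**Figure D4:**
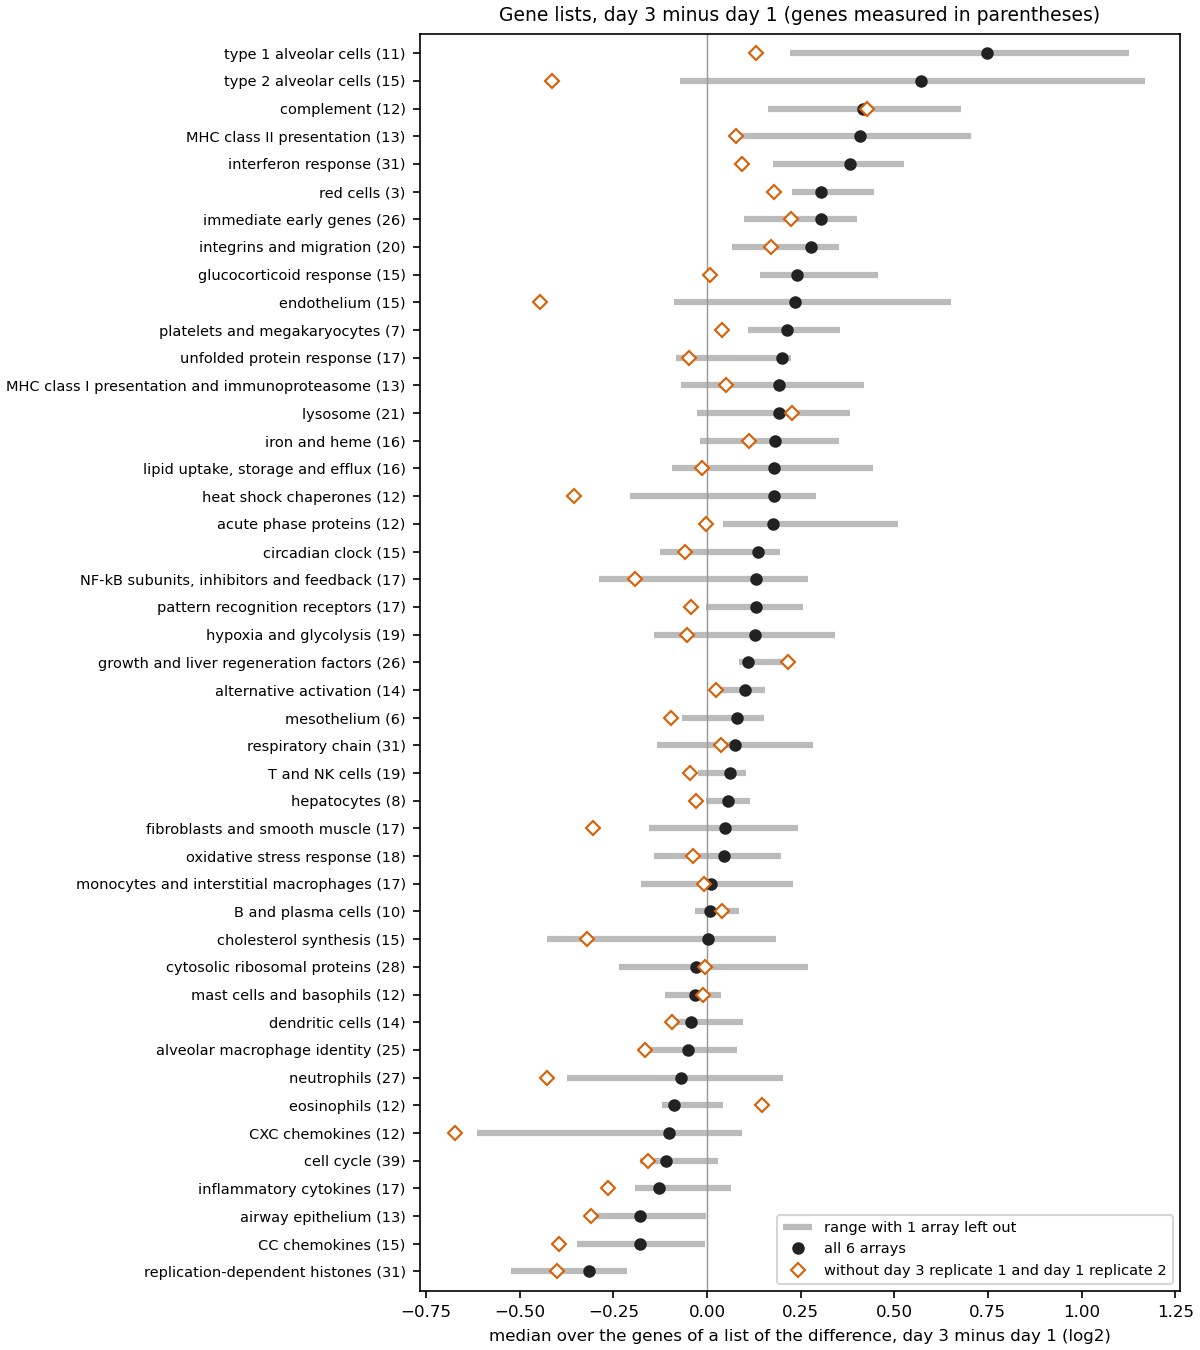
Median difference between day 3 and day 1 over the measured genes of each of 45 lists, in log2 units. Filled points are from all 6 arrays, grey bars span the medians with any single array left out, and open diamonds leave out the weakly separating arrays; the type 2, type 1 and endothelial lists have the widest bars and the histone list lies lowest.

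Beside the other groups, the genes of the comparison had several courses. For Cd63, Mmp12 and C3ar1 the day 3 mean was the highest, at 9.43, 9.73 and 7.13, with 8.16, 8.40 and 6.57 at day 7. For Nr4a2, Hgf, Vegfa and Abca1 the day 1 mean was the lowest, and day 3 lay within 1 log2 unit of intact. For H4c11 and H4c12 the means were 8.55 and 7.33 with an intact liver, 8.26 and 6.92 at day 1, 7.59 and 6.11 at day 3, and 8.60 and 7.29 at day 7. C5ar1 averaged 7.67 ± 0.09 with an intact liver, 8.23 ± 0.13 at day 1, 7.33 ± 0.41 at day 3 and 7.86 ± 0.41 at day 7. These levels are a description with no test.

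**Figure D5:**
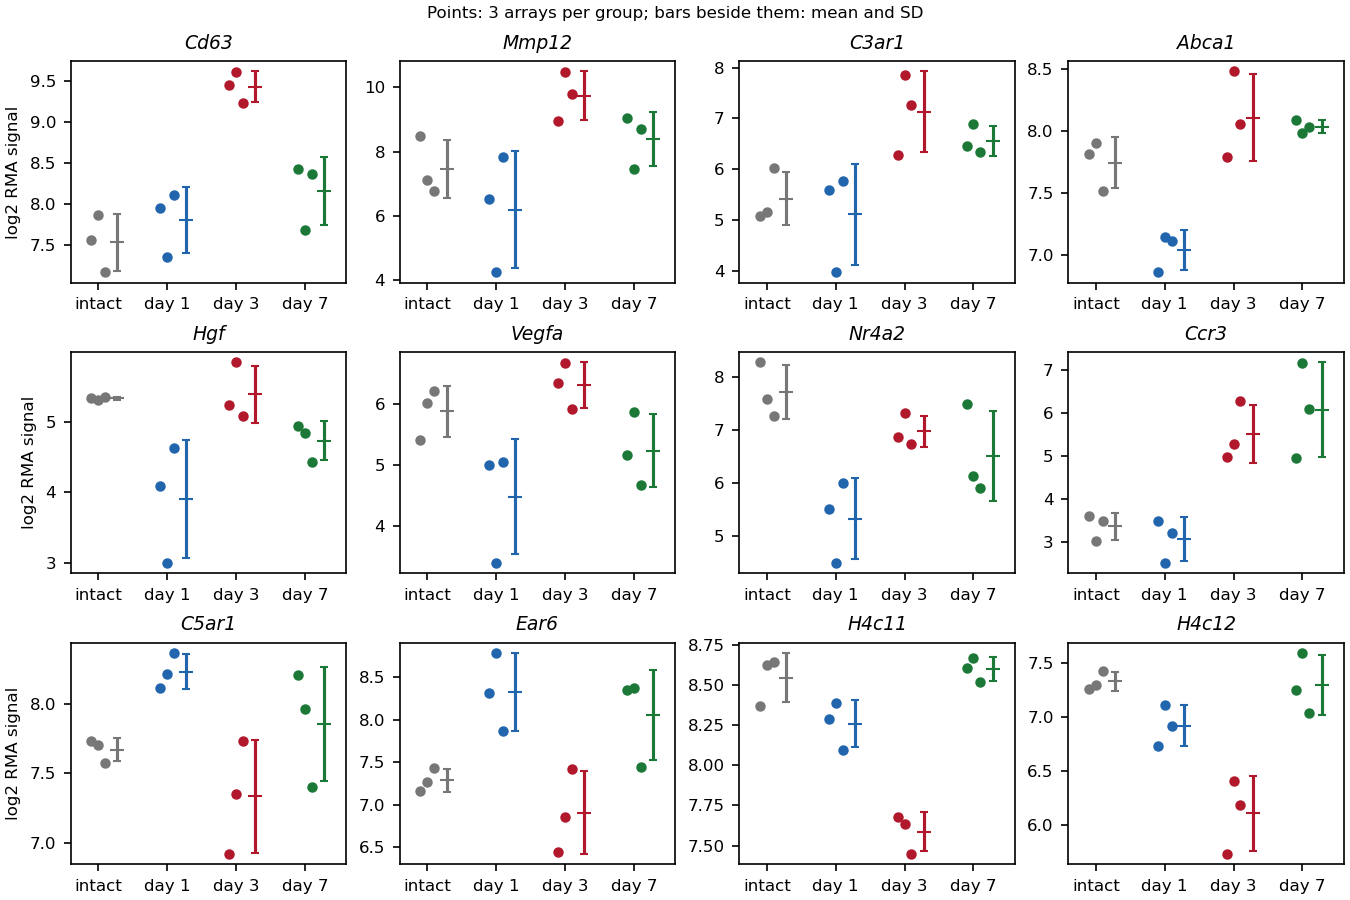
Log2 RMA signal of 12 genes in the intact group and in the groups of day 1, day 3 and day 7, 3 arrays each as points, with the mean and SD beside them. Cd63 and Mmp12 were highest at day 3, Abca1, Hgf, Vegfa and Nr4a2 lowest at day 1, and H4c11 and H4c12 lowest at day 3.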

How the data were processed

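RNA of Siglec-F-sorted alveolar macrophages was hybridised to Clariom S mouse arrays. The authors deposited log2 signals per probe set. The submitters' processing notes name RMA and the Transcriptome Analysis Console without versions, and the log2 scale was judged from the range of the values. The files' genome build is not given in the sources used here. Values were used as deposited, without a pseudocount or a filter. Of 28846 probe sets, 6640 controls were left out; of the 22206 tested, 19572 had exactly 1 gene symbol in the platform annotation and 2634 had none. Where genes are counted, each has 1 probe set, that of highest mean, over 19505 genes.

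A linear model with the group as its only term was fitted over all 12 arrays in limma 3.58.1 (R 4.3.3), with empirical Bayes moderation, a two-sided test of day 3 minus day 1, Benjamini-Hochberg adjustment over 22206 probe sets and a threshold of 0.05. The procedure was tested on simulated data. The 45 gene lists held 840 entries, of which 769 were measured; they were described by counts and medians and not tested.

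Named were, among genes with 1 symbol and without predicted genes, smell, taste and vomeronasal receptors, small RNA genes and antigen receptor segments, the 15 genes on each side described in the text, in each list the members of smallest p (at most 4), and 60 set genes, of which 58 were measured. Mmp12 and the genes called without the weakly separating arrays other than Apoe are outside this rule. The comparison, lists, naming rule, limits for weak separation (under 0.84) and for dap (above 5), and alternatives were chosen with earlier results of these data known. Each of the 3 numbered replicates of day 3 correlated with its number at day 1 at -0.11, 0.07 and 0.14 in its deviations from the group mean. Unlike numbers correlated at -0.23 to 0.22. With 3 arrays per group these values cannot exclude a step shared by number. The labels state no pairing, and the replicate number is not in the model. The number of arrays limits the precision. Promoter windows of 250 bases are those of RefSeq on GRCm38.p6, matched by symbol. Alternatives were trend or robust moderation, limits on mean signal, another quantile normalization, median centring, only the 6 arrays, the replicate block, array weights, dap as a block, arrays left out, another threshold and 1 probe set per gene.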

Additional observations from a re-analysis of the deposited data

Results flagged for a closer look

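Control probe sets carried signal that differed between arrays of the comparison. The labelling control dap was at 6.88 on day 3 replicate 1, while the intact arrays had 2.13 to 2.40. The hybridisation control bioB was at 8.65, 10.29 and 8.62 on day 1 replicates 1, 2 and 3, above the intact arrays at 7.53 to 7.72, while the day 3 arrays had 7.83, 7.81 and 7.44. No test for a single outlying array was run within the groups of 3. The part of these controls in the differences between day 3 and day 1 was not tested.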

How the results depend on the processing

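The count of 0 calls held under 23 of 26 alternatives: other moderation, filters on mean signal, quantile normalization, median centring, only the 6 arrays, the replicate block, array weights, dap as a block or its arrays left out, 1 probe set per gene, an adjusted p of 0.10 and leaving out 10 of the 12 arrays in turn. It was 6 without the weakly separating arrays, and leaving out single arrays gave 0 to 3, with 3 without day 3 replicate 1 (Apoe, Mfge8 and Sdc1) and 1 without day 1 replicate 3 (Gpr65). The count at an unadjusted p under 0.05, 2132 in all, was 915 among probe sets with a mean above 4, 449 with a mean above 6, 1272 with only the 6 arrays, and 1575 to 3106 with an array left out. With the replicate number as a block, which in this balanced design leaves the differences themselves as they are, it was 2198 with 0 calls. Scn3b, at -0.05 over all arrays, lay between -0.99 and 0.44 with an array left out, and above 0 without day 1 replicate 1 or 3 or day 3 replicate 2 or 3. Among 75 genes named with a test, no other direction changed. The 31 genes given only as levels were not scored for direction, and several of them changed sign. Without the weakly separating arrays these included Il6 (1.00 to -0.46), H2-Ab1 (0.71 to -0.31), Sftpc (0.81 to -0.63) and Cxcl13 (0.38 to -1.01). Over the 26 alternatives, 35 of 1192 list medians and 8 of 798 differences given only as levels moved by more than the spread between replicates. Many alternatives cannot move a difference, such as other moderation, only the 6 arrays, or an intact or day 7 array left out. The spread also includes the weakly separating arrays, so these counts do not measure stability. Of the 45 list medians, 18 changed sign without the weakly separating arrays and 21 without day 1 replicate 2. Causes of the moves and sign changes were not tested. Dim genes, among them most of the lower ones, are limited by their signal over background, and 3 arrays per group limit all.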
